A study of Arabidopsis thaliana with 12 samples.

Results

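The genes described here are the machinery that places, maintains and removes DNA methylation in Arabidopsis thaliana. They are 38 loci, chosen by name for their known roles and matched through the locus code that each array probe carries, out of 25383 loci with a probe. They comprise 5 subunits of RNA polymerases IV and V, 5 factors that bring Pol IV to chromatin, 6 proteins that make or bind small RNAs, 10 partners of Pol V, 5 DNA methyltransferases, 3 maintenance factors and 4 DNA demethylases. Of the 38, 36 were measured well enough to be tested. AGO9 (AT5G21150), an Argonaute best known from the germ line, was above background on 0 of 12 arrays, and DRM1 (AT5G15380), a close relative of the methyltransferase DRM2, on 1 array.

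The study asked how overexpression of RDM4 bears on the response of Arabidopsis to chilling. RNA from seedlings aged 2 weeks, labelled as leaf, was hybridised to single-colour arrays in 6 groups with 2 arrays each. The groups were 35S::RDM4 seedlings after 0, 3 and 48 h at 4 °C, and Col wild type seedlings after 0, 3 and 48 h at 4 °C. The seedlings had grown under 16 h of light at 23 and 18 °C. RNA was pooled over the leaves of 30 or more seedlings from a plate, and the labels call the arrays of a group biological replicates. The 35S promoter of cauliflower mosaic virus drives expression in most tissues, so RDM4 was not raised in its own cells alone. The labels speak of overexpression lines without saying which line each array holds, and the hour of sampling is not given in the sources used here. Since time at 4 °C and time of day were not separated in the labels, a cold comparison below contrasts seedlings collected at 3 h or 48 h with seedlings collected at 0 h. With 2 arrays per group the p-values measure the spread between these samples, which may be partly technical.

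Plants methylate DNA de novo through a pathway guided by small RNAs. Pol IV transcribes silent regions, the polymerase RDR2 makes its transcripts double-stranded, DCL3 cuts them into small RNAs, and an Argonaute loaded with such an RNA pairs with a scaffold transcript made by Pol V. This brings in DRM2, which methylates cytosines in any sequence context. MET1, CMT3 and CMT2 then keep methylation in place, and the glycosylases ROS1, DME, DML2 and DML3 cut methylated cytosine out. RDM4 belongs here as well: it is a relative of the yeast factor IWR1, is needed for this kind of methylation and associates with both Pol II and Pol V.

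Levels are given as a probe's background-corrected signal in percent of the 75th percentile of all probes on the same array, so that 100% is a probe brighter than 75% of the array. Levels are compared only within a gene, because each gene has its own probe. Differences are log2 differences between group means with the standard error of the limma fit over all 12 arrays. A difference passed at an adjusted p below 0.05, adjusted by the Benjamini-Hochberg method over 20803 genes. The scanner called 73.3 to 76.7% of probes well above background, and replicate arrays had an SD of 0.145 to 0.182 (log2). The 12 arrays lay on 5 slides scanned on 2 days, and 1 slide alone held both genotypes, with 35S::RDM4 replicate 1 of 48 h and wild type replicate 2 of all times. Genotype and slide therefore cannot be told apart at 0 h and 3 h. Each scan day held both genotypes at 0 h and 3 h, but both 35S::RDM4 arrays of 48 h were scanned on the later day.

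RDM4 (AT2G30280) itself read 6865 and 5965% at 0 h, 6005 and 5449.8% at 3 h and 5216 and 4349% at 48 h in 35S::RDM4 seedlings, against 149 and 141%, 111 and 109%, and 106.8 and 109% in wild type. Every 35S::RDM4 array was above every wild type array, and the difference was 5.46 ± 0.10 at 0 h (adjusted p = 1.77e-07), 5.698 ± 0.10 at 3 h (adjusted p = 1.26e-07) and 5.46 ± 0.10 at 48 h (adjusted p = 1.77e-07). The label of leaf tissue was checked on marker genes. All 6 mesophyll markers were above background on every array. So were all 4 root markers, among them PYK10 with intensities of 149524 to 279345, and all 3 shoot meristem markers. PYK10 is best known from roots and hypocotyls, while SHR and SCR also act in shoots, so the marker check goes against a label of leaf alone. The part of such tissue in the results was not tested. Of 5 pollen markers, PPME1 and DUO1 were above background on 0 arrays, MGH3 on 1, VGD1 on 3 and HAP2 on 4. Of 5 seed and embryo markers, the storage protein gene CRA1 was above background on 12 arrays, LEC2 on 1, LEC1 and FUS3 on 4 each and ABI3 on 8.

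Most tested members of the methylation machinery differed from 0 h at 3 h and at 48 h, in both directions and mostly by modest amounts. So did most of all tested genes. Whether cold or time of day lay behind these differences was not tested. After 3 h, 26 of 36 members differed from 0 h in 35S::RDM4 seedlings, 11 higher and 15 lower, where 70% of all tested genes did (32.9% higher and 37.1% lower). In wild type 22 of 36 differed after 3 h, 5 higher and 17 lower, where 68.1% of all genes did (30.9% higher and 37.2% lower). After 48 h, 28 of 36 differed in 35S::RDM4 seedlings, 13 higher and 15 lower, against a background of 79.5% (40.8% higher and 38.7% lower). In wild type 25 of 36 differed after 48 h, 11 higher and 14 lower, against 78.7% (39.7% higher and 39% lower). Between 3 h and 48 h, 22 of 36 differed in 35S::RDM4 seedlings, 13 higher and 9 lower at 48 h, where 75.8% of all genes did (40.7% higher and 35.1% lower). In wild type 24 of 36 differed between these times, 16 higher and 8 lower, where 76% of all genes did (41% higher and 35.1% lower). The shares of members called were near those of all genes or below them. The split by direction depended on the setting: after 3 h in 35S::RDM4 seedlings it was 8 higher and 18 lower with median scaling, and with normexp background correction 6 were higher and 13 lower. In wild type normexp gave 1 higher and 16 lower after 3 h and 7 higher and 17 lower after 48 h, and without wild type replicate 1 of 3 h there were 3 higher and 15 lower after 3 h. A slide block gave 5 higher and 16 lower after 48 h in 35S::RDM4 seedlings. The median difference of the members was -0.14 after 3 h and -0.082 after 48 h in 35S::RDM4 seedlings, beside -0.029 and 0.0092 for all genes. In wild type the median was -0.14 after 3 h and -0.086 after 48 h, beside -0.043 and -0.0023. The RNA was extracted in bulk, so less RNA per cell and fewer cells of a type cannot be told apart in any of these differences.

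**Figure D1:**
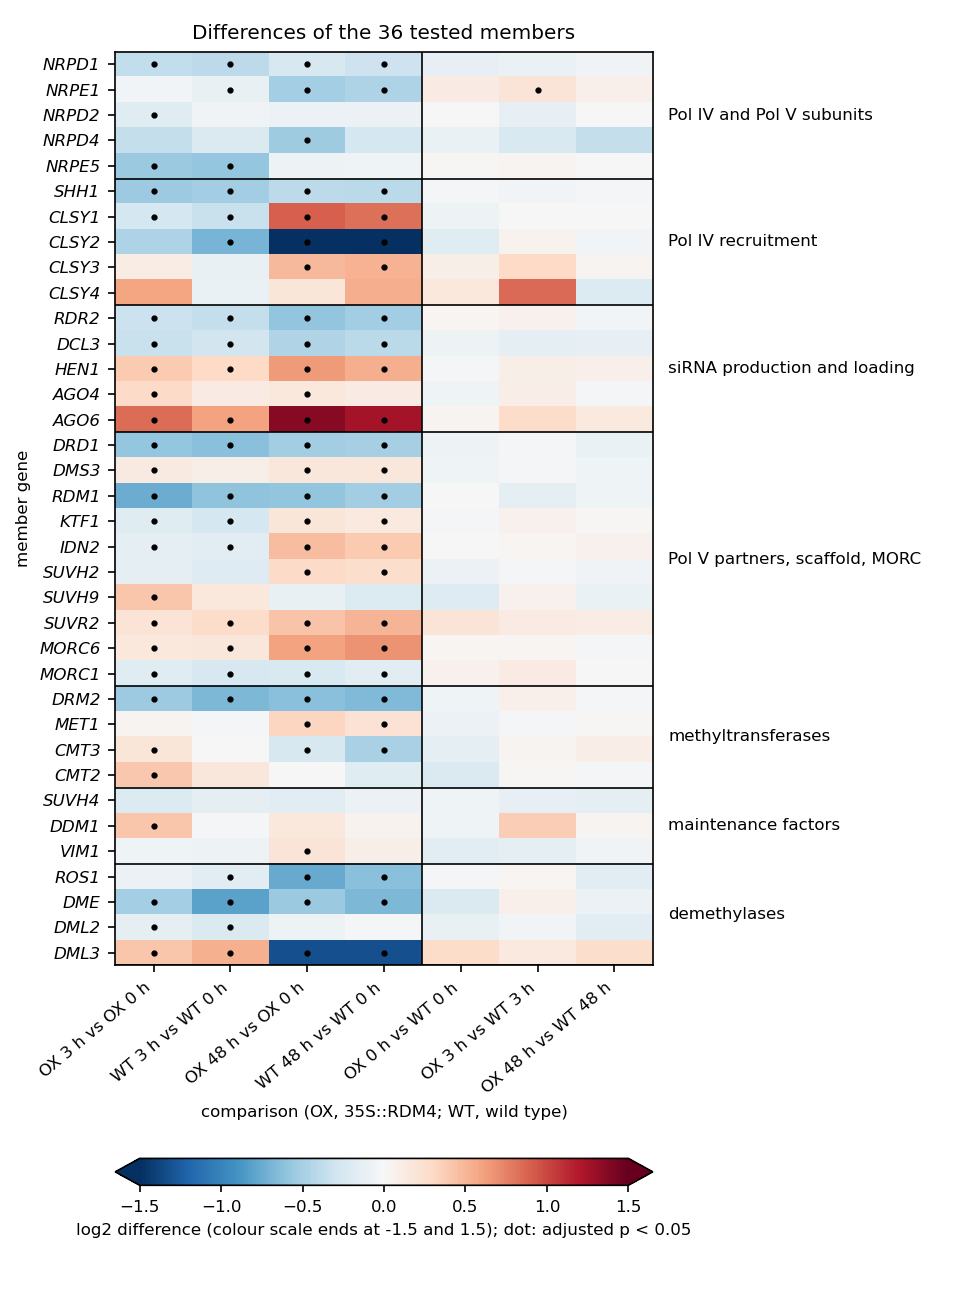
Log2 differences of the 36 tested members (rows, grouped by role) in the cold comparisons of each genotype (left 4 columns) and in the comparisons of 35S::RDM4 (OX) with wild type (WT) at each time (right 3 columns). Red is higher and blue lower in the group named first, dots mark adjusted p below 0.05, and colours saturate beyond -1.5 and 1.5. The cold columns of the genotypes look alike, while the genotype columns hold 1 dot, for NRPE1 at 3 h.

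Most members followed the same course in both genotypes, and 24 of 36 had the same calls at both times. The share of all genes with such patterns was not counted, so these counts describe the members and do not set them apart. Lower at both times were 9 members: NRPD1, SHH1, RDR2, DCL3, DRD1, RDM1, MORC1, DRM2 and DME. Higher at both times were 4, namely HEN1, AGO6, SUVR2 and MORC6. Lower at 3 h and then higher than at 0 h by 48 h were 3, CLSY1, KTF1 and IDN2, and higher at 48 h alone were CLSY3, SUVH2 and MET1. DML3 was higher at 3 h and lower at 48 h. NRPE5 and DML2 were lower at 3 h alone, and CLSY4 and SUVH4 passed at neither time.

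None of the 5 polymerase subunits among the members was called higher against 0 h, where 30.9 to 40.8% of all genes were. At 3 h the mean levels of NRPE7 and NRPD7, which are subunits outside the members, also lay below 0 h in both genotypes. At 48 h subunits outside the members went the other way. NRPE7 and NRPE9B were higher at 48 h in both genotypes, as given with the further genes. NRPD7 was higher at 48 h than at 3 h, by 1.32 in 35S::RDM4 seedlings and 1.02 in wild type. Pol IV and Pol V share most of their subunits and differ in the largest, NRPD1 in Pol IV and NRPE1 in Pol V. NRPD1 (AT1G63020) passed as lower at both times, by -0.37 ± 0.07 and -0.24 ± 0.07 in 35S::RDM4 seedlings and by -0.39 ± 0.07 and -0.31 ± 0.07 in wild type. NRPE1 (AT2G40030) read 29.3 and 29.1% at 0 h, 27.8 and 28.9% at 3 h and 20.3 and 20.7% at 48 h in 35S::RDM4 seedlings, against 26.4 and 27.4%, 24.1 and 25.6%, and 19.3 and 19.6% in wild type. Its arrays at 48 h lay below all arrays of 0 h and 3 h in each genotype. The differences at 48 h were -0.51 ± 0.04 in 35S::RDM4 seedlings (adjusted p = 4.43e-06) and -0.47 ± 0.04 in wild type (adjusted p = 7.92e-06).

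NRPE5 (AT3G57080) is the fifth subunit of Pol V, where Pol II uses a different version. NRPE5 read 160.4 and 164% at 0 h, 112 and 109% at 3 h and 154 and 154% at 48 h in 35S::RDM4 seedlings, against 167 and 155%, 106 and 109%, and 152 and 156% in wild type. At 3 h all 4 arrays were below those of 0 h, and by 48 h they had returned near the 0 h values. The difference at 3 h was -0.56 ± 0.04 in 35S::RDM4 seedlings (adjusted p = 5.84e-06) and -0.58 ± 0.04 in wild type (adjusted p = 4.54e-06). At 48 h it was -0.071 in 35S::RDM4 seedlings and -0.062 in wild type, neither past the threshold. NRPD2 (AT3G23780), the second-largest subunit of both enzymes, differed by -0.18 at most from 0 h, and passed in 35S::RDM4 seedlings at 3 h alone.

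NRPD4 (AT4G15950), a subunit found in both Pol IV and Pol V, had a dim probe. NRPD4 read 1.06 and 0.833% at 0 h, 0.769 and 0.705% at 3 h and 0.6997 and 0.604% at 48 h in 35S::RDM4 seedlings, against 1.03 and 0.985%, 0.954 and 0.782%, and 0.912 and 0.765% in wild type. The 35S::RDM4 arrays of 48 h lay below those of 0 h, and the probe was not well above background on either of them. The difference of -0.54 ± 0.15 passed (adjusted p = 0.0091), with 0 h at least 1.21-fold brighter, while in wild type it was -0.27 (adjusted p = 0.124). With normexp background correction the 35S::RDM4 difference was -0.22 (adjusted p = 0.636), and it was not called without 35S::RDM4 replicate 1 of 0 h or replicate 2 of 48 h.

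The factors that bring Pol IV to chromatin parted ways in the cold comparisons. SHH1 reads methylated histone H3, and the CLASSY proteins CLSY1 to CLSY4 are SNF2-type remodelers that each help Pol IV at their own set of loci. SHH1 (AT1G15215) read 43.3 and 41.97% at 0 h, 30.2 and 28.3% at 3 h and 32.3 and 32.5% at 48 h in 35S::RDM4 seedlings, against 42.5 and 44.4%, 29.9 and 30.5%, and 31.9 and 33.7% in wild type. All cold arrays were below all arrays of 0 h. SHH1 was lower by -0.54 ± 0.05 at 3 h and -0.395 ± 0.05 at 48 h in 35S::RDM4 seedlings (adjusted p = 1.1e-05 and adjusted p = 5.14e-05), and by -0.52 ± 0.05 and -0.41 ± 0.05 in wild type (adjusted p = 1.38e-05 and adjusted p = 4.38e-05).

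CLSY1 (AT3G42670) read 15.1 and 14.5% at 0 h, 12.4 and 12.2% at 3 h and 27.6 and 27.3% at 48 h in 35S::RDM4 seedlings, against 16.1 and 14.99%, 12.3 and 12.4%, and 27.4 and 27.5% in wild type. It was a little lower at 3 h and well above 0 h at 48 h, with replicate arrays close together. The 48 h difference was 0.89 ± 0.04 in 35S::RDM4 seedlings (1.86-fold, adjusted p = 1.37e-07) and 0.82 ± 0.04 in wild type (1.77-fold, adjusted p = 2.27e-07). At 3 h it was -0.26 in 35S::RDM4 seedlings and -0.33 in wild type, both past the threshold.

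CLSY2 went the other way. CLSY2 (AT5G20420) read 1.44 and 1.34% at 0 h, 0.9697 and 1.04% at 3 h and 0.431 and 0.331% at 48 h in 35S::RDM4 seedlings, against 1.95 and 1.27%, 0.854 and 1.104%, and 0.351 and 0.429% in wild type. Its signal was low throughout, and on all 4 arrays of 48 h the probe was not well above background. The fitted difference at 48 h was -1.88 ± 0.22 in 35S::RDM4 seedlings (adjusted p = 6.23e-05) and -2.02 ± 0.22 in wild type (adjusted p = 3.98e-05). Measured against the dimmest signals called above background, 0 h was at least 1.85-fold brighter in 35S::RDM4 seedlings and at least 2.34-fold brighter in wild type. With normexp background correction the differences were -0.71 in 35S::RDM4 seedlings (adjusted p = 0.0775) and -0.99 in wild type (adjusted p = 0.022). At 3 h wild type passed with -0.695 (adjusted p = 0.022), but without wild type replicate 1 of 0 h the value was -0.38 (adjusted p = 0.147), and the call was also lost without wild type replicate 1 of 3 h.

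CLSY3 (AT1G05490) read 2.28 and 2.04% at 0 h, 2.14 and 2.53% at 3 h and 3.202 and 2.85% at 48 h in 35S::RDM4 seedlings, against 1.98 and 2.09%, 1.88 and 1.89%, and 2.68 and 3.203% in wild type. Its arrays of 48 h were above those of 0 h in each genotype. CLSY3 was higher by 0.49 ± 0.11 in 35S::RDM4 seedlings (adjusted p = 0.00335) and by 0.53 ± 0.11 in wild type (adjusted p = 0.00215). With normexp correction these were 0.28 in 35S::RDM4 seedlings and 0.022 in wild type, neither called, and with slide as a block the 35S::RDM4 value was 0.082, also not called. CLSY4 (AT3G24340) had the widest error of all members. Its 35S::RDM4 arrays of 3 h read 3.496 and 8.29%, and its standard error of 0.36 left no comparison past the threshold.

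**Figure D2:**
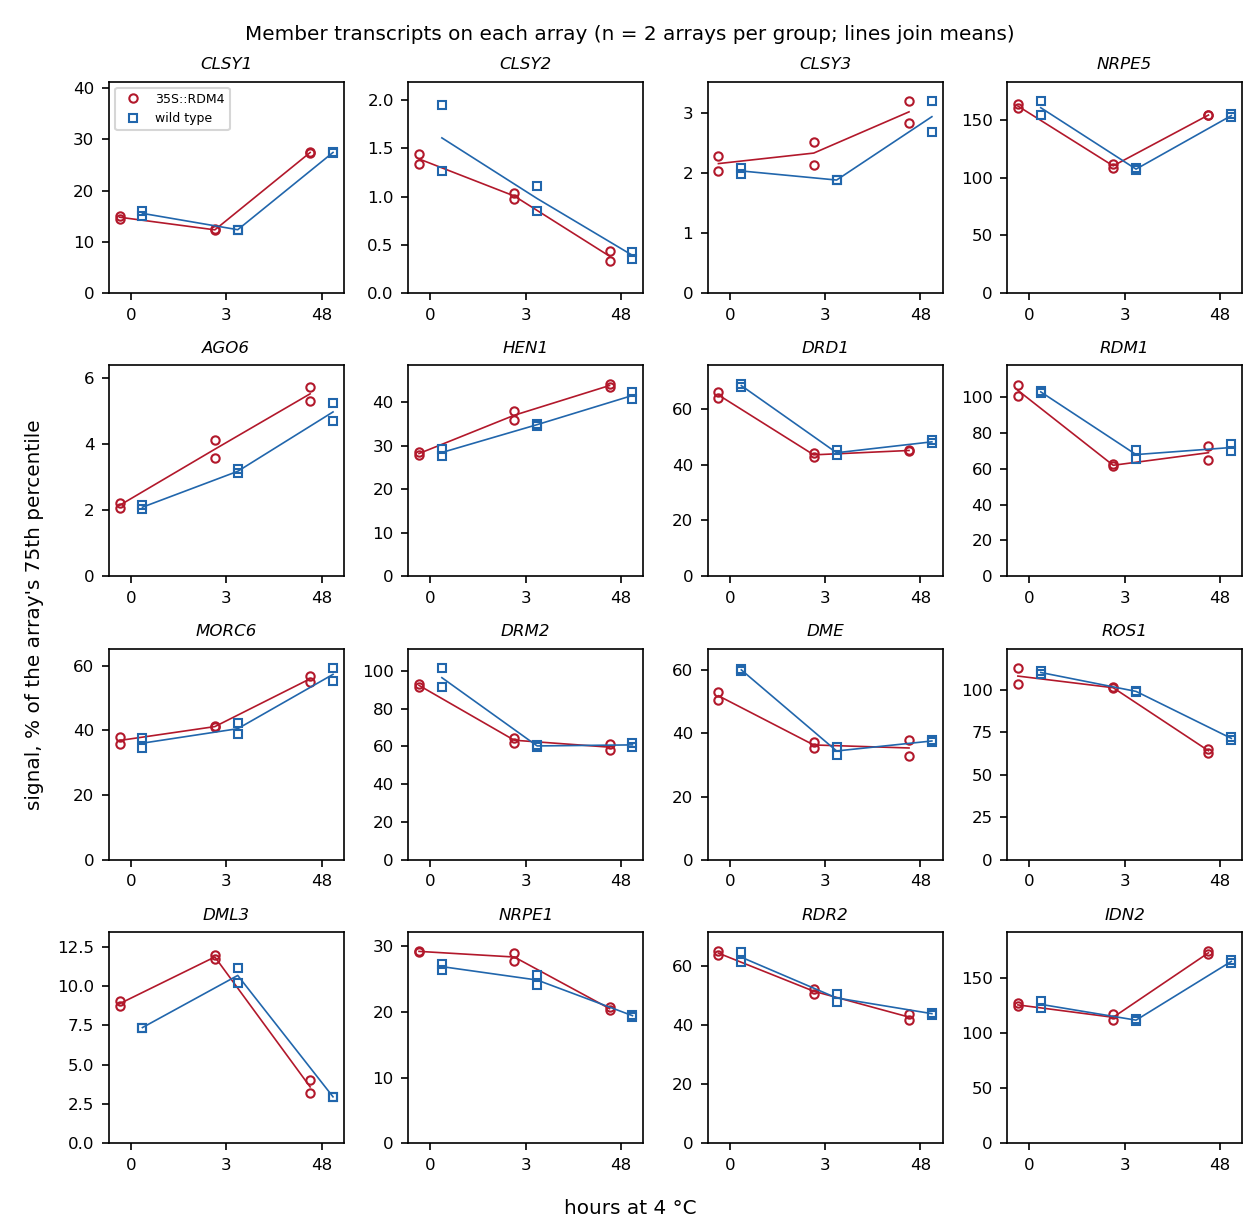
Signal of 16 members on each array, in percent of the array's 75th percentile (vertical axes start at 0), by hours at 4 °C (evenly spaced, not to scale). Red circles are 35S::RDM4 arrays, blue squares wild type arrays, n = 2 per group, and lines join group means. CLSY1, AGO6, HEN1, MORC6 and IDN2 end above their 0 h values in both genotypes, and CLSY2, DRM2, ROS1, DME and DML3 end below them.

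Among the small RNA genes, RDR2 and DCL3 were lower than at 0 h at both cold times, while HEN1 and AGO6 were higher. RDR2 (AT4G11130) copies Pol IV transcripts. RDR2 read 65.1 and 63.7% at 0 h, 50.7 and 52.3% at 3 h and 43.7 and 41.9% at 48 h in 35S::RDM4 seedlings, against 64.8 and 61.3%, 50.5 and 47.98%, and 44.3 and 43.6% in wild type. The level was lower at 3 h and lower again at 48 h on every array. The 48 h difference was -0.59 ± 0.04 in 35S::RDM4 seedlings (adjusted p = 2.94e-06) and -0.52 ± 0.04 in wild type (adjusted p = 6.86e-06). DCL3 (AT3G43920), the dicer of this pathway, was lower by -0.34 and -0.45 in 35S::RDM4 seedlings and by -0.28 and -0.402 in wild type, and all 4 differences passed.

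HEN1 methylates the ends of small RNAs and so protects them. HEN1 (AT4G20910) read 28.5 and 27.9% at 0 h, 35.9 and 37.99% at 3 h and 43.5 and 44.1% at 48 h in 35S::RDM4 seedlings, against 29.1 and 27.7%, 35.1 and 34.6%, and 40.8 and 42.2% in wild type. Both cold times lay above 0 h, and 48 h lay above 3 h, with no overlap of arrays. HEN1 was higher at 48 h by 0.64 ± 0.04 in 35S::RDM4 seedlings (adjusted p = 1.32e-06) and by 0.55 ± 0.04 in wild type (adjusted p = 3.54e-06).

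AGO6, an Argonaute of the methylation pathway, had the largest rise among the members. AGO6 (AT2G32940) read 2.07 and 2.23% at 0 h, 3.57 and 4.12% at 3 h and 5.74 and 5.31% at 48 h in 35S::RDM4 seedlings, against 2.16 and 2.03%, 3.24 and 3.12%, and 4.698 and 5.25% in wild type. Each time lay above the one before in both genotypes. The 48 h difference was 1.36 ± 0.08 in 35S::RDM4 seedlings (2.57-fold, adjusted p = 9.41e-07) and 1.247 ± 0.08 in wild type (2.37-fold, adjusted p = 1.66e-06), and at 3 h it was 0.84 in 35S::RDM4 seedlings and 0.603 in wild type. The probe was dim. With normexp correction the 48 h values were 0.86 in 35S::RDM4 seedlings (adjusted p = 0.0245) and 0.47 in wild type (adjusted p = 0.169), and the 3 h calls were lost in both genotypes (0.53 in 35S::RDM4 seedlings and 0.039 in wild type). AGO4 (AT2G27040), its better-known relative, was higher by 0.29 at 3 h (adjusted p = 0.0031) and 0.16 at 48 h (adjusted p = 0.0373) in 35S::RDM4 seedlings. With slide as a block its 48 h value was -0.00364. In wild type AGO4 differed by 0.13 and 0.13, short of the threshold.

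Of the 10 partners of Pol V, 4 were higher and 5 lower after 3 h in 35S::RDM4 seedlings, and 2 were higher and 5 lower in wild type. After 48 h, 6 were higher and 3 lower in each genotype. Of all genes, 32.9% were higher and 37.1% lower after 3 h in 35S::RDM4 seedlings, and 30.9% and 37.2% in wild type. After 48 h these shares were 40.8% and 38.7% in 35S::RDM4 seedlings and 39.7% and 39% in wild type. The counts use each gene's brightest probe. They hold DMS3, whose probes disagreed, among the higher genes except in wild type at 3 h. DRD1, DMS3 and RDM1 form the complex that lets Pol V transcribe. DRD1 (AT2G16390), its SNF2-type remodeler, read 63.7 and 66.1% at 0 h, 42.8 and 44.1% at 3 h and 45.01 and 45.1% at 48 h in 35S::RDM4 seedlings, against 68.7 and 67.8%, 45.1 and 43.4%, and 47.6 and 48.7% in wild type. All cold arrays lay below all arrays of 0 h. DRD1 was lower by -0.58 ± 0.04 and -0.53 ± 0.04 in 35S::RDM4 seedlings (adjusted p = 1.84e-06 and adjusted p = 1.73e-06) and by -0.63 ± 0.04 and -0.504 ± 0.04 in wild type (adjusted p = 1.15e-06 and adjusted p = 2.33e-06). At 3 h its 2 probes gave -0.58 to -0.295 in 35S::RDM4 seedlings and -0.72 to -0.63 in wild type. The 35S::RDM4 response minus the wild type response was 0.048 to 0.43 at 3 h, so its size depended on the probe.

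RDM1, the small protein of the complex, behaved like DRD1. RDM1 (AT3G22680) read 100.4 and 106.7% at 0 h, 61.4 and 62.3% at 3 h and 72.8 and 64.8% at 48 h in 35S::RDM4 seedlings, against 102 and 103%, 65.4 and 70.2%, and 69.7 and 73.8% in wild type. Again the cold arrays did not overlap those of 0 h. RDM1 was lower by -0.74 ± 0.06 at 3 h and -0.59 ± 0.06 at 48 h in 35S::RDM4 seedlings (adjusted p = 1.29e-05 and adjusted p = 3.41e-05), and by -0.5998 ± 0.06 and -0.52 ± 0.06 in wild type (adjusted p = 4.9e-05 and adjusted p = 8.09e-05). For DMS3 (AT3G49250), a protein with an SMC-type hinge, no direction can be given. Its 2 probes gave differences of -0.34 to 0.17 at 48 h in 35S::RDM4 seedlings and of -0.15 to 0.17 in wild type.

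IDN2 and KTF1 act on the scaffold transcript, IDN2 as an RNA-binding protein and KTF1 as a relative of the elongation factor SPT5 that binds AGO4. IDN2 (AT3G48670) read 124 and 127% at 0 h, 112 and 117% at 3 h and 174 and 171% at 48 h in 35S::RDM4 seedlings, against 129.5 and 123%, 112 and 111%, and 164 and 166% in wild type. Arrays of 3 h were lowest and arrays of 48 h highest in each genotype, with no overlap. IDN2 was lower at 3 h by -0.14 in 35S::RDM4 seedlings and -0.17 in wild type, and higher at 48 h by 0.46 ± 0.04 in 35S::RDM4 seedlings (adjusted p = 8.01e-06) and 0.39 ± 0.04 in wild type (adjusted p = 2.46e-05). KTF1 (AT5G04290) had the same calls with smaller values, -0.18 and 0.18 in 35S::RDM4 seedlings and -0.26 and 0.15 in wild type. Its 48 h call in 35S::RDM4 seedlings was lost with slide as a block.

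SUVH2 and SUVH9 bind methylated DNA and recruit Pol V. SUVH9 (AT4G13460) read 33.2 and 30.8% at 0 h, 40.02 and 45.3% at 3 h and 31.8 and 27.5% at 48 h in 35S::RDM4 seedlings, against 37.6 and 35.6%, 42.1 and 39.4%, and 32.6 and 30.6% in wild type. In 35S::RDM4 seedlings the arrays of 3 h were above all others of that genotype, and the difference from 0 h was 0.41 ± 0.09 (adjusted p = 0.00275). From 3 h to 48 h SUVH9 was lower in both genotypes, by -0.53 (adjusted p = 0.000572) in 35S::RDM4 seedlings and -0.37 (adjusted p = 0.00456) in wild type. At 3 h it differed from 0 h by 0.16 in wild type (adjusted p = 0.145), and the responses of the genotypes were not called different (0.26, adjusted p = 0.222). SUVH2 (AT2G33290) was higher at 48 h, by 0.29 in 35S::RDM4 seedlings and 0.26 in wild type.

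SUVR2 (AT5G43990), a relative of histone methyltransferases that works with chromatin remodelers in silencing, read 10.6 and 10.1% at 0 h, 11.8 and 11.99% at 3 h and 12.97 and 14.9% at 48 h in 35S::RDM4 seedlings, against 8.63 and 9.42%, 11.04 and 10.8%, and 13.5 and 12.2% in wild type. Both cold times were above 0 h on every array of a genotype. At 48 h the difference was 0.43 ± 0.08 in 35S::RDM4 seedlings (adjusted p = 0.000954) and 0.51 ± 0.08 in wild type (adjusted p = 0.000328). With slide as a block the 35S::RDM4 call was lost (0.48, adjusted p = 0.0521).

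MORC1 and MORC6 are ATPases that compact silent chromatin. MORC6 (AT1G19100) read 38.1 and 35.8% at 0 h, 41.1 and 41.3% at 3 h and 55.1 and 56.9% at 48 h in 35S::RDM4 seedlings, against 37.7 and 34.5%, 42.2 and 38.9%, and 59.2 and 55.4% in wild type. At 48 h all 4 arrays were well above 0 h, by 0.602 ± 0.06 in 35S::RDM4 seedlings (adjusted p = 2.44e-05) and 0.67 ± 0.06 in wild type (adjusted p = 1.26e-05). MORC1 (AT4G36290) read 65.5 and 66.5% at 0 h, 58.4 and 57.6% at 3 h and 55.5 and 56.8% at 48 h in 35S::RDM4 seedlings, against 62.6 and 63.6%, 53.4 and 53.1%, and 56.1 and 55.97% in wild type. It was lower in the cold, by -0.19 and -0.23 in 35S::RDM4 seedlings and by -0.24 and -0.17 in wild type, all past the threshold. Its 4 probes gave -0.19 to 0.066 at 3 h and -0.23 to -0.048 at 48 h in 35S::RDM4 seedlings, and their mean was not called there.

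DRM2 (AT5G14620), the de novo methyltransferase at the end of the pathway, read 91.6 and 93.04% at 0 h, 62.1 and 64.6% at 3 h and 61.1 and 58.2% at 48 h in 35S::RDM4 seedlings, against 101 and 91.4%, 59.9 and 60.6%, and 59.9 and 61.8% in wild type. All 8 cold arrays lay below the 4 arrays of 0 h. The differences were -0.54 ± 0.05 at 3 h and -0.63 ± 0.05 at 48 h in 35S::RDM4 seedlings (adjusted p = 2.79e-05 and adjusted p = 6.64e-06), and -0.68 ± 0.05 and -0.66 ± 0.05 in wild type (adjusted p = 7.6e-06 and adjusted p = 4.99e-06). From 3 h to 48 h it did not pass a test in either genotype (-0.086 and 0.013).

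The other methyltransferases differed among themselves in direction. MET1 (AT5G49160), which copies methylation at CG sites, was higher at 48 h by 0.32 ± 0.06 in 35S::RDM4 seedlings (adjusted p = 0.000843) and 0.21 ± 0.06 in wild type (adjusted p = 0.00806). The first call was lost with slide as a block and the second without wild type replicate 2 of 0 h. CMT3 (AT1G69770), which acts at CHG sites, was lower at 48 h by -0.24 ± 0.05 in 35S::RDM4 seedlings (adjusted p = 0.00214) and -0.48 ± 0.05 in wild type (adjusted p = 2.98e-05). CMT2 (AT4G19020), which acts at CHH sites, was higher at 3 h in 35S::RDM4 seedlings by 0.4002 (adjusted p = 0.00174), and in wild type it differed by 0.17 (adjusted p = 0.0773); the responses were not called different (0.23, adjusted p = 0.227).

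VIM1 (AT1G57820) helps MET1 find hemimethylated DNA, DDM1 (AT5G66750) opens chromatin for the methyltransferases, and SUVH4 (AT5G13960) writes the histone mark that CMT3 reads. VIM1 passed at 48 h in 35S::RDM4 seedlings, at 0.198 (adjusted p = 0.00396), and not in wild type (0.084, adjusted p = 0.128). DDM1 passed at 3 h in 35S::RDM4 seedlings, at 0.42 (adjusted p = 0.0061), and not in wild type (-0.024, adjusted p = 0.845). The differences between the responses were not called (0.11, adjusted p = 0.408, and 0.44, adjusted p = 0.102). VIM1 has near-identical copies in the genome, so its probes may also report those. Genes of dividing cells moved at the same times. Of 18 such markers 15 were higher and 3 lower at 48 h in each genotype, where 40.8% of all genes were higher in 35S::RDM4 seedlings and 39.7% in wild type. Their summed level was 24.5 to 25.4 times the 75th percentile at 48 h and 15.6 at 0 h in 35S::RDM4 seedlings, and 23.7 to 24.4 at 48 h and 15.8 to 15.9 at 0 h in wild type. Their part in the values of MET1, CMT3, VIM1 and DDM1 was not tested.

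Of the 4 DNA glycosylases, ROS1, DME and DML3 were lower at 48 h in both genotypes, where 38.7% of all genes were lower in 35S::RDM4 seedlings and 39% in wild type. ROS1 (AT2G36490), the main demethylase of vegetative tissue, is known for losing expression when the methylation pathway fails. ROS1 read 113 and 104% at 0 h, 102 and 101% at 3 h and 65.4 and 62.8% at 48 h in 35S::RDM4 seedlings, against 109 and 111%, 99.4 and 98.7%, and 70.6 and 72.3% in wild type. The arrays of 48 h lay far below the rest in both genotypes. The 48 h difference was -0.75 ± 0.04 in 35S::RDM4 seedlings (1.68-fold lower, adjusted p = 6.9e-07) and -0.62 ± 0.04 in wild type (1.54-fold lower, adjusted p = 2.24e-06).

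DME (AT5G04560), best known for demethylation in the central cell of the flower, read 50.6 and 52.98% at 0 h, 35.3 and 37.3% at 3 h and 37.8 and 32.8% at 48 h in 35S::RDM4 seedlings, against 60.4 and 59.5%, 32.99 and 35.7%, and 37.1 and 37.95% in wild type. All cold arrays were below all arrays of 0 h in the same genotype. The differences were -0.51 ± 0.07 at 3 h and -0.56 ± 0.07 at 48 h in 35S::RDM4 seedlings (adjusted p = 0.000219 and adjusted p = 9.35e-05), and -0.804 ± 0.07 and -0.68 ± 0.07 in wild type (adjusted p = 1.44e-05 and adjusted p = 2.65e-05). At 48 h in 35S::RDM4 seedlings its 2 probes gave -0.56 to -0.076, and their mean was not called (-0.32, adjusted p = 0.0841). In wild type the 2 probes gave -0.94 to -0.68 at 48 h. The 35S::RDM4 response minus the wild type response was 0.29 to 0.49 at 3 h and 0.12 to 0.86 at 48 h. Its size thus depended on the probe.

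DML3, a relative of ROS1, changed direction over time. DML3 (AT4G34060) read 9.05 and 8.701% at 0 h, 11.98 and 11.7% at 3 h and 3.18 and 3.997% at 48 h in 35S::RDM4 seedlings, against 7.36 and 7.36%, 10.2 and 11.1%, and 2.97 and 2.95% in wild type. Arrays of 3 h were highest and arrays of 48 h lowest in each genotype, with no overlap. At 3 h the difference from 0 h was 0.42 ± 0.09 in 35S::RDM4 seedlings (adjusted p = 0.00381) and 0.53 ± 0.09 in wild type (adjusted p = 0.000996). At 48 h it was -1.32 ± 0.09 in 35S::RDM4 seedlings (2.49-fold lower, adjusted p = 2.27e-06) and -1.31 ± 0.09 in wild type (2.49-fold lower, adjusted p = 2.33e-06). From 3 h to 48 h DML3 was 3.32-fold lower in 35S::RDM4 seedlings and 3.602-fold lower in wild type. DML2 (AT3G10010) read 25.2 and 25.3% at 0 h, 22.9 and 22.8% at 3 h and 24.6 and 23.5% at 48 h in 35S::RDM4 seedlings, against 26.02 and 28.5%, 23.6 and 23.3%, and 27.5 and 26.4% in wild type. It was lower at 3 h by -0.15 in 35S::RDM4 seedlings and -0.21 in wild type (adjusted p = 0.0248 and adjusted p = 0.00428), and differed by less than 0.1 at 48 h.

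Both genotypes gave similar cold responses on each gene's brightest probe. Across the 36 members the responses of 35S::RDM4 and wild type had Pearson's r = 0.899 and Spearman's rho = 0.924 at 3 h, with the same sign in 32 of 36. At 48 h r was 0.981 and rho 0.974, with the same sign in 36 of 36. These values are across genes, which are not independent replicates, and the responses share slides and scan days; over all 20803 genes r was 0.910 at 3 h and 0.937 at 48 h, with the same sign in 85.7% and 92.3%. No member passed the limma test of the difference between the responses at either time, where 7.35% of all genes passed at 3 h and 5.49% at 48 h. At an unadjusted p below 0.05 there were 3 members at 3 h, where 26.7% of all genes were, and 1 at 48 h, where 18.8% were.

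**Figure D3:**
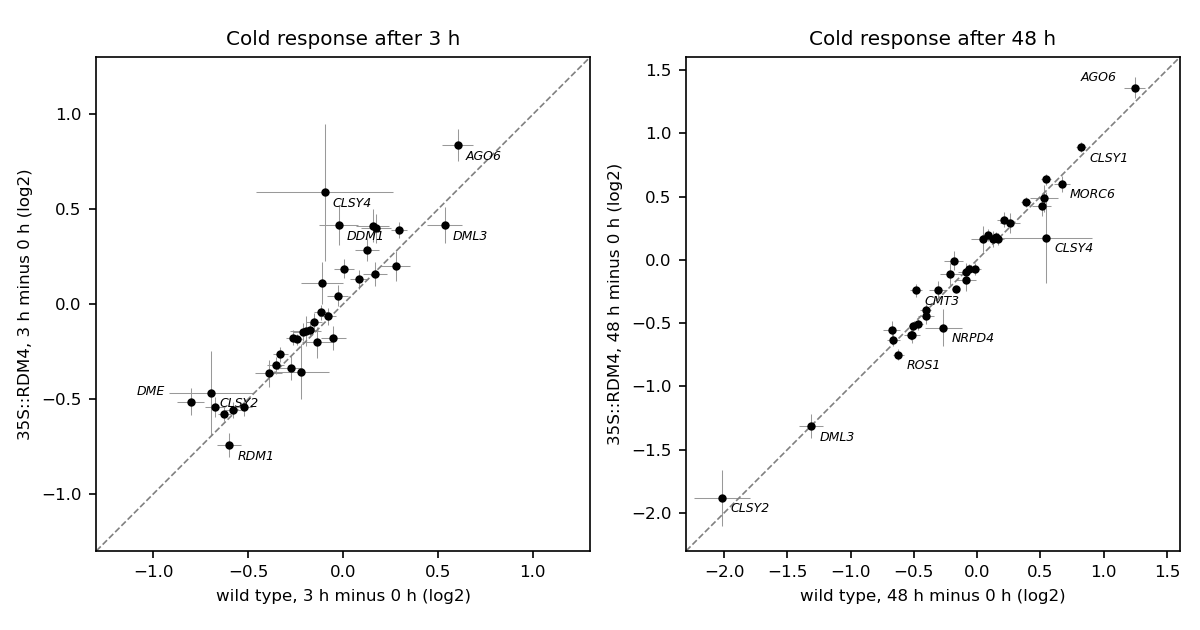
Cold response of each of the 36 tested members in 35S::RDM4 seedlings (vertical) against wild type (horizontal), as log2 differences from 0 h with standard errors, after 3 h (left) and 48 h (right). The dashed line marks equal responses. At 48 h all 36 points have the same sign in both genotypes, from CLSY2 at the lower left to AGO6 at the upper right.

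On each gene's brightest probe, differences between the genotypes were few and small. Some second probes differed more. The 2 probes of DME gave -0.091 to 0.61 at 48 h, and those of DRD1 gave -0.025 to 0.27 at 3 h. At 0 h 0 of 36 members passed by limma, where 12.9% of all genes did, and 7 had an unadjusted p below 0.05, as did 29.1% of all genes. At 48 h 0 of 36 passed, where 3.71% of all genes did, and 5 had an unadjusted p below 0.05, as did 16.9% of all genes. At 3 h 1 of 36 passed, NRPE1, which was higher, where 4.9% of all genes passed and 2.22% were higher. At each time the 95% interval of the difference lay within 1.5-fold for 34 of 36 members. It was widest for CLSY4, at -0.67 to 0.99 at 0 h, 0.013 to 1.68 at 3 h and -1.04 to 0.63 at 48 h.

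NRPE1, the largest subunit of Pol V, had both 35S::RDM4 arrays above both wild type arrays at each time on its brightest probe, by the array values given with its cold response. The difference was 0.19 ± 0.04 at 3 h (1.14-fold, adjusted p = 0.0412), 0.12 at 0 h (adjusted p = 0.0912) and 0.077 at 48 h (adjusted p = 0.379). Within scan days the 3 h value was 0.203 and 0.18. Its 2 probes gave -0.16 to 0.12 at 0 h, 0.024 to 0.19 at 3 h and -0.11 to 0.077 at 48 h, so they had opposite signs at 0 h and 48 h. The 3 h call was lost in 16 of 24 alternative settings. Among them were 10 that left out a single array: either wild type array of 0, 3 or 48 h, or either 35S::RDM4 array of 0 or 3 h. Without 35S::RDM4 replicate 1 of 3 h, CLSY4 was called in its place (1.47, adjusted p = 0.0305).

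Averaged over the 3 times, 5 of 36 members passed, where 15.3% of all genes did (6.63% higher and 8.64% lower). NRPE1 (0.13 ± 0.02, adjusted p = 0.0108), DML3 (0.23 ± 0.05, adjusted p = 0.0266) and MORC1 (0.063 ± 0.02, adjusted p = 0.0416) were higher in 35S::RDM4 seedlings. VIM1 (-0.12 ± 0.03, adjusted p = 0.0218) and DML2 (-0.103 ± 0.03, adjusted p = 0.043) were lower. These values are those of each gene's brightest probe. The 2 probes of NRPE1 gave -0.081 to 0.13 and the 4 of MORC1 -0.069 to 0.063, so probes of both genes differed in sign, and neither gene was called with the mean of its probes. VIM1 read 92.8 and 90.9% at 0 h, 89.5 and 86.1% at 3 h and 109 and 102% at 48 h in 35S::RDM4 seedlings, against 106 and 99.8%, 97.7 and 96.9%, and 111 and 107.1% in wild type. At 0 h and 3 h its 35S::RDM4 arrays lay below the wild type arrays, and at 48 h the groups overlapped. For MORC1 the arrays overlapped at 48 h as well, while those of NRPE1, DML2 and DML3 were apart at all 3 times. The share of all genes with arrays apart was not counted, so this describes these genes and does not set them apart. On the single slide with both genotypes, at 48 h, the difference was 0.050 for NRPE1, 0.11 for DML3, -0.012 for MORC1, 0.020 for VIM1 and -0.099 for DML2. With slide as a block none of the 5 passed, and DML3 then had -0.072. That fit had 2 residual degrees of freedom, and 0.115% of all genes passed in it, so the lost calls say little.

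**Figure D4:**
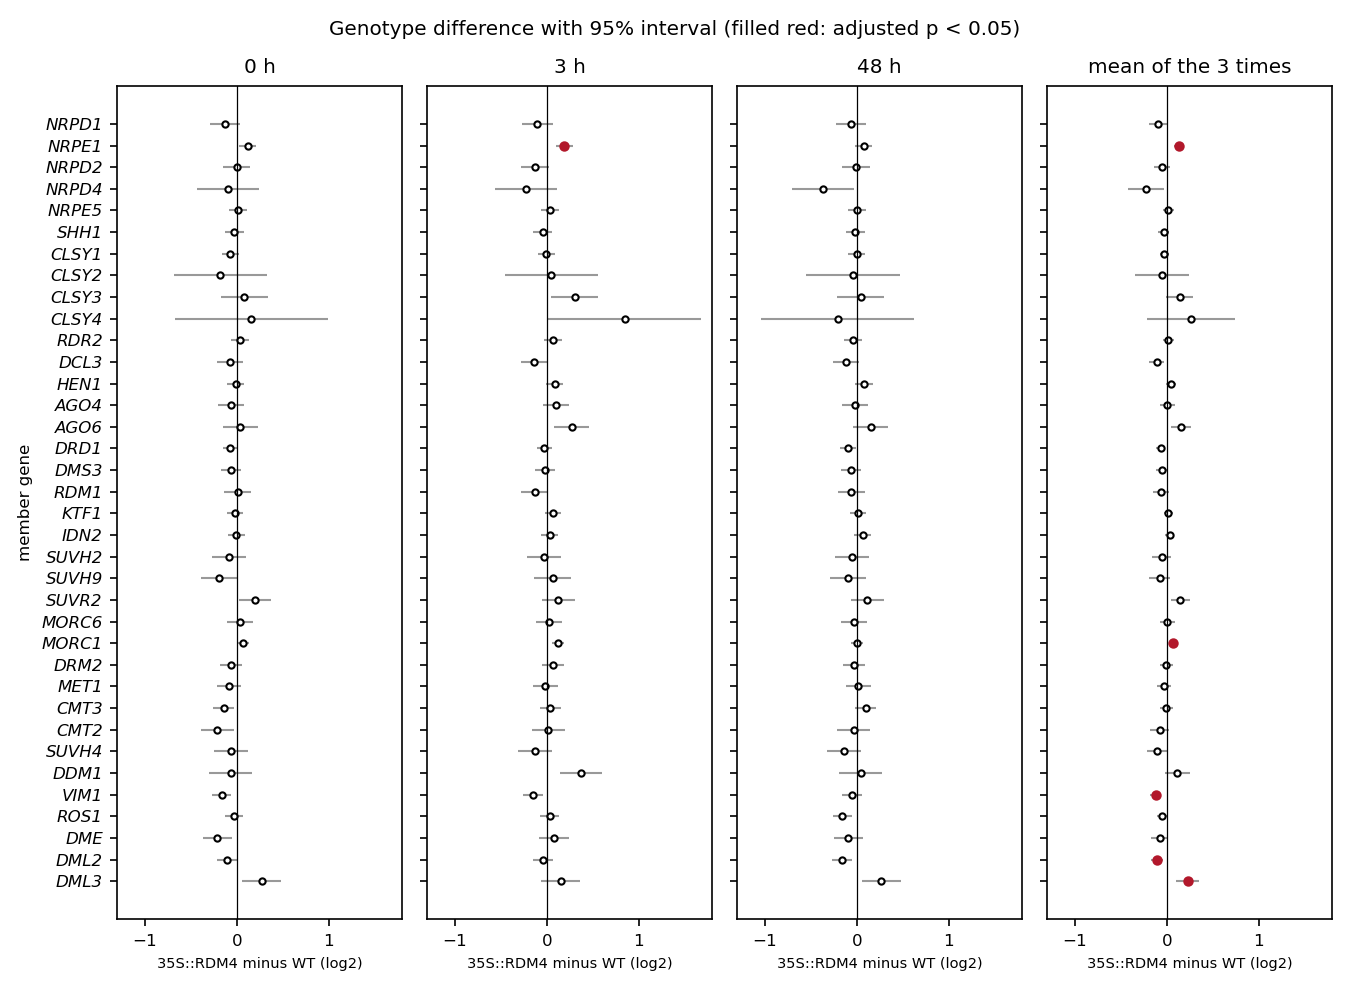
Log2 difference of 35S::RDM4 minus wild type for each tested member at 0, 3 and 48 h and averaged over the 3 times, with 95% intervals from limma. Filled red points passed at an adjusted p below 0.05: NRPE1 at 3 h, and NRPE1, MORC1, VIM1, DML2 and DML3 for the average. The interval of CLSY4 is the widest in each panel.

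Further genes of the same processes were listed by name, 36 in all, of which 33 were tested. At 3 h 7 were higher and 14 lower in 35S::RDM4 seedlings, and 6 higher and 17 lower in wild type. At 48 h 14 were higher and 12 lower in 35S::RDM4 seedlings, and 12 higher and 10 lower in wild type. The share called in 35S::RDM4 seedlings was 63.6% at 3 h and 78.8% at 48 h, where 70% and 79.5% of all genes were called. In wild type it was 69.7% at 3 h and 66.7% at 48 h, where 68.1% and 78.7% of all genes were called. ZDP (AT3G14890) had the largest difference of the list at 48 h. It was higher by 2.46 in 35S::RDM4 seedlings (adjusted p = 2.09e-09) and by 2.36 in wild type (adjusted p = 2.46e-09). H1.1 (AT1G06760) was lower at 48 h, by -1.21 in 35S::RDM4 seedlings (adjusted p = 6.42e-07) and -1.19 in wild type (adjusted p = 7.38e-07). NRPE7, a subunit of Pol V, read 26.8 and 26.2% at 0 h, 21.7 and 20.6% at 3 h and 70.8 and 67.2% at 48 h in 35S::RDM4 seedlings, against 28.5 and 26.8%, 22.1 and 22.1%, and 70.4 and 67.4% in wild type. It was 2.604-fold higher at 48 h in 35S::RDM4 seedlings (adjusted p = 2.83e-08) and 2.49-fold higher in wild type (adjusted p = 3.68e-08). NRPE9B, another subunit, was 2.19-fold higher at 48 h in 35S::RDM4 seedlings (adjusted p = 3.72e-07) and 2.17-fold in wild type (adjusted p = 4.14e-07). At 3 h FDM3, a relative of IDN2, and SUVH5, a histone methyltransferase, were lower by -0.42 and -0.47 in 35S::RDM4 seedlings (adjusted p = 1.61e-05 and adjusted p = 0.000261), and by -0.52 and -0.51 in wild type (adjusted p = 4.5e-06 and adjusted p = 0.000184). IDM1, a histone acetyltransferase that helps ROS1, had -0.52 at 3 h in 35S::RDM4 seedlings (adjusted p = 0.000525) and -0.36 in wild type (adjusted p = 0.00403).

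IBM1, a histone demethylase that keeps gene bodies free of CHG methylation, read 49.03 and 47.5% at 0 h, 57.8 and 60.6% at 3 h and 60.3 and 57.1% at 48 h in 35S::RDM4 seedlings, against 41.7 and 43.2%, 45.5 and 48.1%, and 52.7 and 54.5% in wild type. Every 35S::RDM4 array was above the wild type arrays of its time. IBM1 was higher in 35S::RDM4 seedlings by 0.19 ± 0.05 at 0 h (adjusted p = 0.0384), 0.34 ± 0.05 at 3 h (adjusted p = 0.0166) and 0.22 ± 0.03 on average (adjusted p = 0.0027). At 48 h it differed by 0.13 (adjusted p = 0.205). The mean of its probes gave 0.051 on average, not called. Slide as a block also ended the call, where 0.115% of all genes passed. IBM1 is known to have a long and a short transcript. CMT1, a relative of CMT3, was called higher in 35S::RDM4 seedlings at 0 h (1.11, adjusted p = 0.0381). The 35S::RDM4 arrays of 0 h read 1.96 and 0.929%, while on the wild type arrays the signal was at or near background, and normexp correction gave -0.32.

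Small RNA genes of other pathways numbered 16, with 15 tested. At 48 h 7 were higher and 6 lower in each genotype, or 86.7% called, against 79.5% of all genes in 35S::RDM4 seedlings and 78.7% in wild type. RDR6, which makes trans-acting small RNAs, was lower at 48 h by -0.76 in 35S::RDM4 seedlings (adjusted p = 5.86e-06) and -0.77 in wild type (adjusted p = 5.72e-06), like RDR2. RDR1, which acts against viruses, was lower by -0.84 in 35S::RDM4 seedlings (adjusted p = 3.12e-07) and -1.06 in wild type (adjusted p = 8.38e-08). AGO2, another antiviral Argonaute, was higher by 0.64 in 35S::RDM4 seedlings (adjusted p = 6.69e-06) and 0.46 in wild type (adjusted p = 5.46e-05). AGO3 was lower by -1.53 in 35S::RDM4 seedlings (adjusted p = 7.4e-07) and -1.44 in wild type (adjusted p = 1.11e-06) on its brightest probe. At 3 h that probe gave -0.28 in 35S::RDM4 seedlings and -0.303 in wild type, but the mean of the AGO3 probes gave 1.13 in 35S::RDM4 seedlings and 1.21 in wild type, so no direction can be given for AGO3 at 3 h.

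Methylation draws on S-adenosylmethionine, and 12 genes for its supply were all tested. At 3 h 5 were higher and 2 lower in 35S::RDM4 seedlings, and 6 higher and 1 lower in wild type. Of all genes 32.9% were higher and 37.1% lower in 35S::RDM4 seedlings, and 30.9% and 37.2% in wild type. The share of the list called at 3 h was 58.3% in each genotype, below the 70% of all genes in 35S::RDM4 seedlings and the 68.1% in wild type. At 48 h it was 91.7% in 35S::RDM4 seedlings and 75% in wild type, where 79.5% and 78.7% of all genes were called. The values that follow are those of 3 h. MS2, a methionine synthase, was 2.901-fold higher at 3 h in 35S::RDM4 seedlings (adjusted p = 3.1e-07) and 3.29-fold in wild type (adjusted p = 1.58e-07). SAHH2, which clears the product of methylation, was 2.32-fold higher in 35S::RDM4 seedlings (adjusted p = 1.09e-06) and 2.73-fold higher in wild type (adjusted p = 3.71e-07). MAT3, an S-adenosylmethionine synthetase, was 2.096-fold higher in 35S::RDM4 seedlings (adjusted p = 2.32e-06) and 1.94-fold higher in wild type (adjusted p = 4.44e-06).

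Of 7 genes listed as known targets of DNA methylation or demethylation, most were not above background here. FWA, SDC, FIS2 and PHE1 were above background on 0 of 12 arrays and MEA on 1, which says that they were not detectable, not that they were unchanged. QQS, an orphan gene of starch metabolism whose expression is known to vary with its methylation, read 15.4 and 16.1% at 0 h, 5.001 and 4.37% at 3 h and 4.54 and 4.76% at 48 h in 35S::RDM4 seedlings, against 20.6 and 21.96%, 9.16 and 9.36%, and 7.59 and 8.13% in wild type. All 35S::RDM4 arrays were below the wild type arrays of the same time. QQS was lower in 35S::RDM4 seedlings by -0.43 ± 0.07 at 0 h (adjusted p = 0.0066), by -0.99 ± 0.07 at 3 h (adjusted p = 0.00211), and 48 h gave -0.76 ± 0.07 (adjusted p = 0.000773). On the single slide with both genotypes the 48 h value was -0.84, and within scan days it was -0.42 and -0.45 at 0 h and -0.87 and -1.10 at 3 h. With slide as a block the 0 h call was lost (-0.77, adjusted p = 0.0743), where 0.38% of all genes were called. EPF2, a stomatal peptide gene that ROS1 keeps free of methylation, did not pass between genotypes at any time.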

How the data were processed

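Gene expression was measured on 12 single-colour (Cy3) Agilent 4x44k arrays. Per the file headers, the authors extracted intensities with Agilent Feature Extraction 10.7.1.1 (protocol GE1_107_Sep09); the processed signal used here is a deposited, background-corrected intensity on a linear scale. The deposited value table equals the median signal in 11 of 12 columns. Probe annotation is that of the array design.

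Of 43603 probes, 34285 matched a locus of the reference table. Probes were kept if well above background on both arrays of at least 1 group, and 142 with outlier calls were left out. Log2 processed signal minus the array's 75th percentile was used, with the brightest kept probe per gene. In limma 3.58.1 (R 4.3.3) 6 group means were fitted with 12 contrasts and 8.08 total degrees of freedom, and p-values were adjusted by Benjamini-Hochberg. The fit was tested on simulated data. The number of arrays limits the precision. With slide as a block the fit had 2 residual degrees of freedom, against 6 in the main fit. Between genotypes it called 0.38% of all genes at 0 h, 0.135% at 3 h and 1.33% at 48 h. A genotype call lost in that fit therefore says little about a gene.

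Members and lists were chosen with earlier results of these data known. Array values are given for members called between genotypes or differing by at least 0.5 (log2) in a called cold comparison. Of each other list, up to 4 called genes per comparison with the largest difference could be named. Genes without a symbol in the reference were left out, except ZDP and H1.1. Alternatives were normexp correction (offset 50, on the median signal, since the planned mean signal was not used here), quantile and median scaling, other background filters, the value table, the mean of probes, a block for slide, for scan day or for replicate number, a trended variance, and leaving out each array.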

Additional observations from a re-analysis of the deposited data

Results flagged for a closer look

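No member's cold response differed between the genotypes by the limma test on its brightest probe. Among the other named genes, cell type markers aside, 4 did at 3 h. Each value is the response in 35S::RDM4 seedlings minus that in wild type. Of the markers, CRA1 had 1.33 ± 0.07 at 3 h (adjusted p = 0.000219) and 1.16 ± 0.07 at 48 h (adjusted p = 5.7e-05). The root marker TIP2;3 had 0.42 ± 0.10 at 3 h (adjusted p = 0.041). NRPD7, a Pol IV subunit, had -0.34 ± 0.07 (adjusted p = 0.029): it was lower at 3 h by -0.55 in 35S::RDM4 seedlings and by -0.21 in wild type. AGO7, which acts in trans-acting small RNA production, had -0.27 ± 0.06 (adjusted p = 0.0299), with 0.38 in 35S::RDM4 seedlings and 0.64 in wild type. RDR1 had 0.33 ± 0.06 (adjusted p = 0.0202), with -0.43 in 35S::RDM4 seedlings and -0.77 in wild type. QQS had -0.55 ± 0.10 (adjusted p = 0.0187), with -1.75 in 35S::RDM4 seedlings and -1.20 in wild type. Within scan days the values kept their sign, at -0.297 and -0.38 for NRPD7, -0.23 and -0.31 for AGO7, 0.27 and 0.40 for RDR1, and -0.45 and -0.65 for QQS. Slide as a block ended each of the 4 calls, and so did leaving out wild type replicate 1 or 2 of 3 h.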

How the results depend on the processing

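Over 24 alternative settings, 9914 of 10344 recomputed member differences stayed on their side of the threshold, of which 9528 kept their sign and 386 changed sign without being called either way. A further 288 lost a call with the sign kept, 137 gained one with the sign kept, and 5 changed sign with a call in at least 1 of the fits. The total counts of members called in the 6 cold comparisons stayed within 1.5 times of those reported in every setting, but the counts by direction did not, as given with them; between 3 h and 48 h in wild type normexp gave 10 higher and 6 lower. A slide block made it 8 higher and 18 lower after 3 h in wild type. The small genotype counts moved. At 0 h (0 members) there were 1 with quantile scaling, with probes above background on all arrays, with the deposited value table and with a scan day block, and 2 with trended and robust variances. In these settings 6.79 to 15.3% of all genes were called, beside 12.9% in the main fit. At 3 h (1 member) there were 0 with normexp, median scaling, no background filter, the value table, the mean of probes and slide as a block, and 2 with quantile scaling and with trended variances. Of all genes 0.0817% were called with normexp, 0.236% with the value table and 0.135% with slide as a block, beside 4.9% in the main fit. The share was 1.1% with no background filter, 4.61% with the mean of probes and 4.98% with median scaling. It was 5.86% with quantile scaling and 8.33% with trended variances. For the average (5 members) there were 1 with normexp, 0 with the value table, 3 with the mean of probes, 0 with slide as a block and 2 with slide as a random block. The shares of all genes were 4.71%, 6.67%, 14.5%, 0.115% and 12% in the same order, beside 15.3% in the main fit. Leaving out single arrays gave 0 to 4 members at 0 h, 0 to 1 at 3 h, 0 to 1 at 48 h, 1 to 7 for the average, and 0 to 1 for the response difference at 48 h. The 4 at 0 h came without either 35S::RDM4 array of 48 h, the 1 at 48 h without 35S::RDM4 replicate 1 of 48 h, and the 1 for the response difference without replicate 2 of 48 h. The average gave 1 member without wild type replicate 1 of 3 h or 48 h or 35S::RDM4 replicate 2 of 0 h or 3 h, 2 without wild type replicate 2 of 0 h or 48 h or 35S::RDM4 replicate 1 of 0 h, and 3 without wild type replicate 1 of 0 h, 35S::RDM4 replicate 1 of 3 h or replicate 2 of 48 h. All wild type arrays of a replicate number lay on the same slide, and 35S::RDM4 replicate numbers followed scan day at 0 h and 3 h. Over 15 pairs of groups the correlation of replicate deviations was -0.054 to 0.29, over 0.1 in 5. The main fit did not pair the samples. With the replicate number as a block the counts were 2 at 0 h, 2 at 3 h and 1 at 48 h, where 15%, 6.86% and 4.32% of all genes were called.

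Values that changed sign and were called in at least 1 of the fits, other named genes included, were, with the mean of probes, DMS3 (-0.15 for 48 h against 3 h in wild type, -0.086 and -0.14 for 48 h against 0 h and 3 h in 35S::RDM4 seedlings), IBM1 at 3 h in wild type (-0.048) and AGO3 at 3 h (1.13 in 35S::RDM4 seedlings, 1.21 in wild type). With slide as a block they were AGO4 (-0.00364) and MS1 (-0.061) at 48 h in 35S::RDM4 seedlings, and DML3 (-0.072) and MAT3 (0.011) averaged between genotypes. With normexp CMT1 changed sign between genotypes at 0 h (-0.32), and with quantile scaling RDM4 in the response difference at 48 h (0.29). The cause was not tested in these cases. Probes near background (CLSY2, CLSY3, AGO6, NRPD4) limit what can be said of those genes.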
